A study of Mus musculus with 7 samples.

Results

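Very wide open regions are stretches of chromatin whose outline, merged over libraries, reached 2000 bp and that had a peak in every library. They come from a study of intestinal stem cells after bone marrow transplantation. Peaks of the 7 libraries on chromosomes 1 to 19 and X were merged where they overlapped by at least 1 bp, and a merged region was kept if each library had a peak in it and its merged width reached 2000 bp. This gave 1230 regions, which is 1.185% of the 103809 merged regions and 2.444% of the 50324 regions open in all 7 libraries. The regions were selected on 2 measured values, their merged width and their presence in every library, so both are given below as a description.

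Omni-ATAC-seq, in which a transposase cuts and tags accessible DNA, was done on Lgr5+ cells sorted from the intestine of mice on day 7 after a transplant. All recipients were female B6-GFP-Lgr5 mice of 8 to 12 weeks that had received lethal irradiation, so the control group was also irradiated and transplanted. The Syn group (3 libraries) received syngeneic marrow, and the Allo group (4 libraries) received BALB/c marrow, a mismatch after which donor T cells can attack the gut in graft-versus-host disease. Each library came from 50000 sorted cells of 3 to 4 pooled mice and was labelled an independent biological sample, so the animals within a pool cannot be told apart. The gate was the Lgr5 reporter alone, and the labels do not say how the reporter was built. Neither group held mice without irradiation.

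The files gave peak lists and no reads, so the depth of each library is unknown and no interval for counting error could be given. The lists held between 62977 (Allo 1) and 88861 (Allo 3) peaks. In the lists of Allo 3 and Allo 4 the peak names followed a different pattern from the remaining 5 lists. The labels do not say whether they were called in a separate run, so counts are also given without these libraries. In a bulk library a change in the share of cells in which a region is open cannot be told apart from a change within each cell. As a check of the cell type, all 20 genes of a list of crypt stem cell markers had a region open in all 7 libraries. So did 5 of 10 B cell, 5 of 10 myeloid and 7 of 15 T and NK cell genes. The pan-leukocyte list had 9 of 10, the endothelial and stromal list 9 of 12, and all protein-coding genes 15783 of 21627. The goblet cell list (10 of 10) and the enterocyte list (14 of 15) were also nearly complete. Open chromatin near a marker thus did not by itself separate the epithelial cell types, or these from leukocytes and stroma.

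Most open regions of a mammalian genome are short, about the space cleared of nucleosomes by a bound promoter or enhancer. Wider stretches are known from promoters rich in CpG dinucleotides, which tend to stay free of DNA methylation, and from clusters of neighbouring enhancers near genes that define a cell type. In the crypt, Lgr5+ stem cells are maintained by Wnt signals from their niche, and their daughters choose between absorptive and secretory fates under Notch control. These statements are background.

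Promoter DNA of 6 of the named genes shows what the start of a very wide region looks like. Each run is the 250 bases before the annotated start, 5′ to 3′ on the gene's strand, from RefSeq on GRCm38.p6, the assembly of the mm10 build. Capitals mark the GC box GGGCGG, the core of sites bound by Sp1-family factors, and the CCAAT box, on either strand. The genes were taken to span wide, highly ranked, stem cell, Wnt pathway and group-dependent regions, and all but the last are rich in CpG.

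Lratd1, chr12:14152039-14152288, minus strand: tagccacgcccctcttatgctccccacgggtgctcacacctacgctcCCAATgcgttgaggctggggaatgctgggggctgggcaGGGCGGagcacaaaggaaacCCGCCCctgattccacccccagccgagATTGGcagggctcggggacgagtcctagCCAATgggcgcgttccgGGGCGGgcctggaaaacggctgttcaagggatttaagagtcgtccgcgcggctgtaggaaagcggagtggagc
Fzd7, chr1:59481897-59482146, plus strand: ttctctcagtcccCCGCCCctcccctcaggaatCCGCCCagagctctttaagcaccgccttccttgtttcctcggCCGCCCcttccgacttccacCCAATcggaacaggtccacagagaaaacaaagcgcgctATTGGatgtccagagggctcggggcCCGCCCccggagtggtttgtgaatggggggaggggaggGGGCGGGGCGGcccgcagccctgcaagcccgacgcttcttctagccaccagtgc
Ascl2, chr7:142969265-142969514, minus strand: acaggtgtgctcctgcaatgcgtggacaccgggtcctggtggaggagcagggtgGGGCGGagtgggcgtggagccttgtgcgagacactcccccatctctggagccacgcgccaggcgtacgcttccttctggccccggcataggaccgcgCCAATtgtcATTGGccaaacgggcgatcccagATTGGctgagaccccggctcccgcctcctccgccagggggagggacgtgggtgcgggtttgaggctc
Snai1, chr2:167537945-167538194, plus strand: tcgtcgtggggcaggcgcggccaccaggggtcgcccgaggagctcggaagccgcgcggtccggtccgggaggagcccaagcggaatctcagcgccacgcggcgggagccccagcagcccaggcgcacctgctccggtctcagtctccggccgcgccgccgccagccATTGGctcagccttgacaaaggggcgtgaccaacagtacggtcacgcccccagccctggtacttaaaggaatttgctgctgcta
Cul4a, chr8:13105373-13105622, plus strand: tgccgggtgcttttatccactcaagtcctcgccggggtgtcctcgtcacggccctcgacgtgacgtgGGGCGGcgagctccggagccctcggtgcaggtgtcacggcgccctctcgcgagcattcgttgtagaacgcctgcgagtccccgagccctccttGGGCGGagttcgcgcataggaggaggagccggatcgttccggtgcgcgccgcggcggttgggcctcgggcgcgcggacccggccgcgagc
Sp5, chr2:70474673-70474922, plus strand: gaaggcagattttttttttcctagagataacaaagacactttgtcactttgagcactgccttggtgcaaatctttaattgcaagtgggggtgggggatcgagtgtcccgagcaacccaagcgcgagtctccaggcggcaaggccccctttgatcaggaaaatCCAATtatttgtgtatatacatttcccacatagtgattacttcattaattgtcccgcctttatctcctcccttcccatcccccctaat

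The Cul4a run, shared with the divergently transcribed Pcid2, held 38 CpG in 250 bases at a G+C content of 71.6% and had 2 GC boxes and no CCAAT box. The Fzd7 run held 6 GC boxes, some of them overlapping, 2 CCAAT boxes and 17 CpG. The Lratd1 run had 3 matches to each motif, while Ascl2 had 1 GC box and 3 CCAAT boxes, and each held 19 CpG. The Snai1 run had 27 CpG, 1 CCAAT box and no GC box. Sp5 stood apart with 6 CpG and a G+C content of 46%, although its region of 2869 bp was among the wider ones.

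Wide regions can also lie over microRNA genes, whose short products silence messenger RNAs that pair with the seed, bases 2 to 8. Of 1005 annotated hairpins, 14 lay inside a very wide region and 98 inside a narrower region open in all 7 libraries. The mature sequences below, from RefSeq on GRCm38.p6, belong to microRNAs well known from mammalian tissues and were chosen after their values were seen. Capitals mark the seed, and no seed is shared among them.

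miR-194-5p, chr19:6264658-6264679, plus strand: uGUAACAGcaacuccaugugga
miR-191-5p, chr9:108568325-108568347, plus strand: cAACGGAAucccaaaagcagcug
miR-425-5p, chr9:108568789-108568811, plus strand: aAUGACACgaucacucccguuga

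The hairpin of miR-194-2, a microRNA abundant in intestinal epithelium, lay in an intergenic region of 2464 bp at chr19:6262331-6264794, whose summit was 2173 bp from the nearest protein-coding gene end, that of Atg2a. Peaks covered 2088, 2228 and 2219 bp of it in Syn 1 to 3 and 2153, 1724, 2286 and 2156 bp in Allo 1 to 4. The groups overlapped, with the lowest and the highest value both in Allo. The hairpins of miR-191 and miR-425 shared a region of 2280 bp at the end of Ndufaf3, covered by 1905, 1791 and 1805 bp in Syn and by 2022, 1764, 2252 and 1937 bp in Allo. Again the groups overlapped, and neither region passed a test between groups described below.

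The very wide regions were mostly just past the threshold. Their merged widths had a median of 2173 bp, quartiles of 2081 and 2357 bp and a maximum of 3583 bp, against a median of 875 bp for the 49094 shared regions under 2000 bp. A total of 179 reached 2500 bp and 15 reached 3000 bp. Just inside the threshold were regions of Pde12, Tspo, Anp32e and Dapk2 at 2000 bp and Ormdl3 at 2001 bp, and just outside it, at 1998 bp, those of Rdh1, Cd63, Ints9, Armc12 and Proser3. In all, the series held 1231 merged regions of this width, and the single one not open in all 7 libraries, 2290 bp wide at chr2:60582733-60585022, had a peak in 6. Together the very wide regions spanned 2.77 Mb and were assigned by their summit to 1135 genes, with 50 having no protein-coding gene within 50 kb.

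A merged width is the outline of 7 libraries and can exceed what any of them covered. In 194 of the 1230 regions each library's peaks covered at least 2000 bp, and in 246 no library's did. A single unbroken peak in each library was found for 342 regions, while 69 were split into 2 or more peaks in each library and 819 were whole in some libraries and split in others. "Very wide" therefore describes the outline, and in most of the regions at least 1 library's peaks covered less than 2000 bp.

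The median covered width over the regions was 1911, 1994 and 1968.5 bp in Syn 1 to 3 and 1778, 1833, 2048.5 and 1968 bp in Allo 1 to 4. The means of these medians were 1958 ± 42.5 bp (SD, n = 3) in Syn and 1907 ± 124 bp (SD, n = 4) in Allo, and the Allo libraries lay on both sides of Syn. Allo 3, the longest list, covered 2000 bp in 749 regions, and Allo 1, the shortest list, in 287. The share of regions held as 1 peak ranged from 50.9% in Allo 2 to 75.2% in Allo 3, with the Syn libraries between 57.5% and 69.8%. Allo 1 and Allo 2 thus had the most fragmented and Allo 3 the most continuous outlines, and the Syn libraries fell between them.

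**Figure D1:**
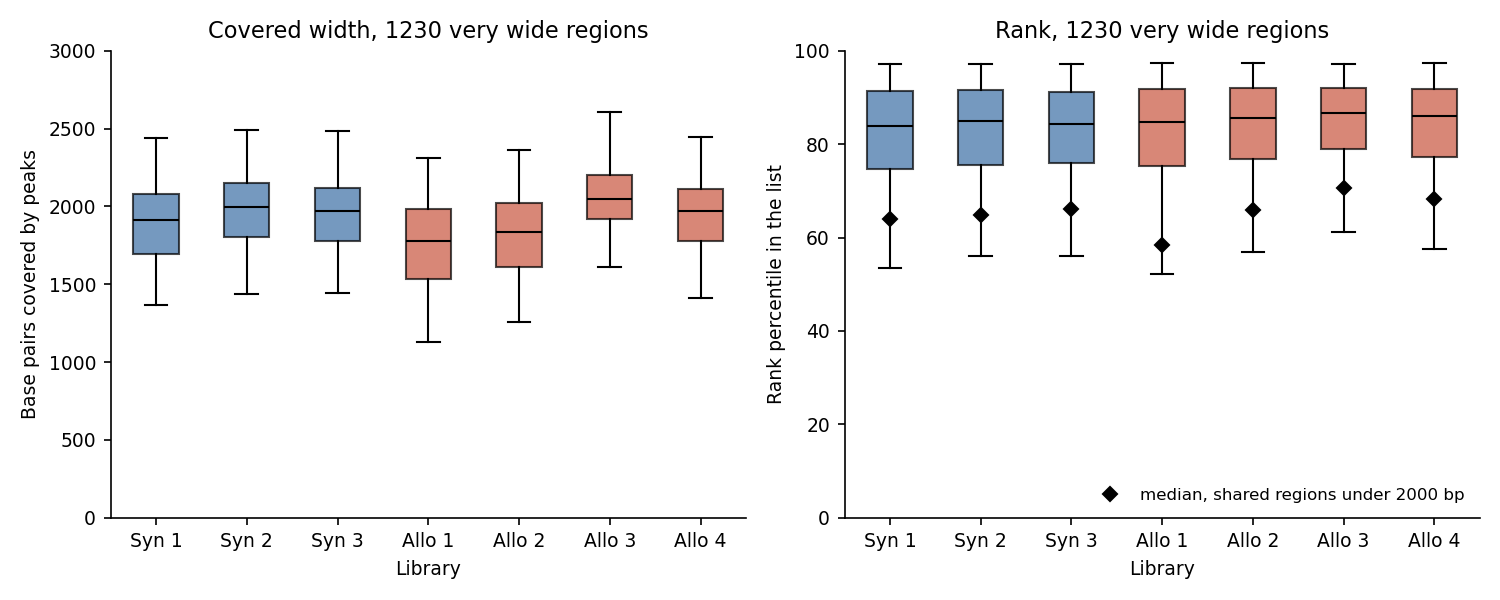
The left panel shows base pairs covered by a library's peaks and the right panel the rank percentile in the library's list, for the 1230 very wide regions. Boxes span the quartiles with the median, whiskers the central 90% of regions, and diamonds the median rank of shared regions under 2000 bp. Covered width was lowest in Allo 1 and highest in Allo 3, while the medians of the rank stayed between 83.96 and 86.75 in all 7 libraries.

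The significance column of a peak list, −log10 q, says how strong the evidence is that a peak stands above its local background. It does not say how far the peak stands above it, which is the fold. Its rank percentile places a peak within its own list, 100 being the most significant. The median rank percentile of the very wide regions, taking each region's best peak, was 83.96, 84.87 and 84.34 in Syn and 84.81, 85.65, 86.75 and 86.14 in Allo. Shared regions under 2000 bp had medians between 58.5 and 70.6. From 2000 to under 2500 bp, 30.7% of regions were 1 peak in each library, against 94.7% from 500 to under 1000 bp. With several peaks the best one has more chances to rank high, and how much this adds was not tested. The median fold over background told the regions less apart, at 5.69 to 6.33 in the very wide and 5.49 to 7.25 in the narrower ones. It was lower in the very wide regions in Syn 2, Syn 3, Allo 3 and Allo 4, and higher in Syn 1, Allo 1 and Allo 2. A total of 369 very wide regions (30%) had a mean rank percentile above 90, against 13.9% of the narrower regions, but these 369 were a small part of the 7183 shared regions ranked so high. Only 32 (2.60%) had a mean below 50, against 31.0% of the narrower regions. Spearman's rho of merged width and mean rank percentile was 0.62 over all shared regions (n = 50324) and -0.11 over the very wide ones (n = 1230). The rule truncates the second set at 2000 bp and leaves it a narrow range of widths, so the 2 values are not comparable, and the regions share libraries.

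Gene ends were the main place of the very wide regions. The summit of the best peak lay within 1 kb of an end of a protein-coding gene in 735 regions (59.8%), inside a gene body farther from its ends in 315 (25.6%) and outside genes in 180 (14.6%). For shared regions under 2000 bp these shares were 23.2%, 41.9% and 34.9%. An annotated transcription start from the promoter table lay inside 688 very wide regions (55.9%) and inside 18.7% of the narrower ones; a wider interval also has more room for one. Ends of 2 or more genes lay inside 133 regions (10.8%, against 2.40%), and starts on both strands, as at divergent promoters, inside 91 (7.40%, against 1.45%). Among regions at gene ends only, both-strand starts stood at 12.0% in the very wide and 6.23% in the narrower ones.

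Rank followed place. Gene-end regions had a median mean rank percentile of 88.3, gene-body regions 80.0 and intergenic regions 77.8. The narrower shared regions had 87.1, 58.5 and 58.2, so the very wide regions ranked above the narrower ones mainly away from gene ends. Gene-end regions were also less fragmented, with 33.3% held as 1 peak in each library, against 20% of gene-body and 18.9% of intergenic regions.

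Around a start, the open stretch reached farther into the gene than upstream. Among 442 very wide regions with a single annotated start, the median reach was 952 bp upstream and 1264 bp downstream, and 63.3% reached farther downstream. In 7835 narrower regions the reaches were 478 and 664 bp, with 65.5% longer downstream, so the lean was shared by both widths. The median position of the summit was -60.5 bp relative to the start in the very wide regions, a negative value being upstream.

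The share at gene ends was higher in each wider class up to 2500 bp. It was 7.60% of regions under 500 bp, 12.4% from 500 to under 1000 bp, 37.3% from 1000 to under 1500 bp, 54.2% from 1500 to under 2000 bp, 60.3% from 2000 to under 2500 bp and 56.4% from 2500 bp up. Of the 15 regions of at least 3000 bp, 6 (40%) had the summit at a gene end and 9 in a gene body. Regions on either side of the 2000 bp threshold were thus alike in place, and the median of the mean rank percentile was 86.6 just below it and 85.3 just above.

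**Figure D2:**
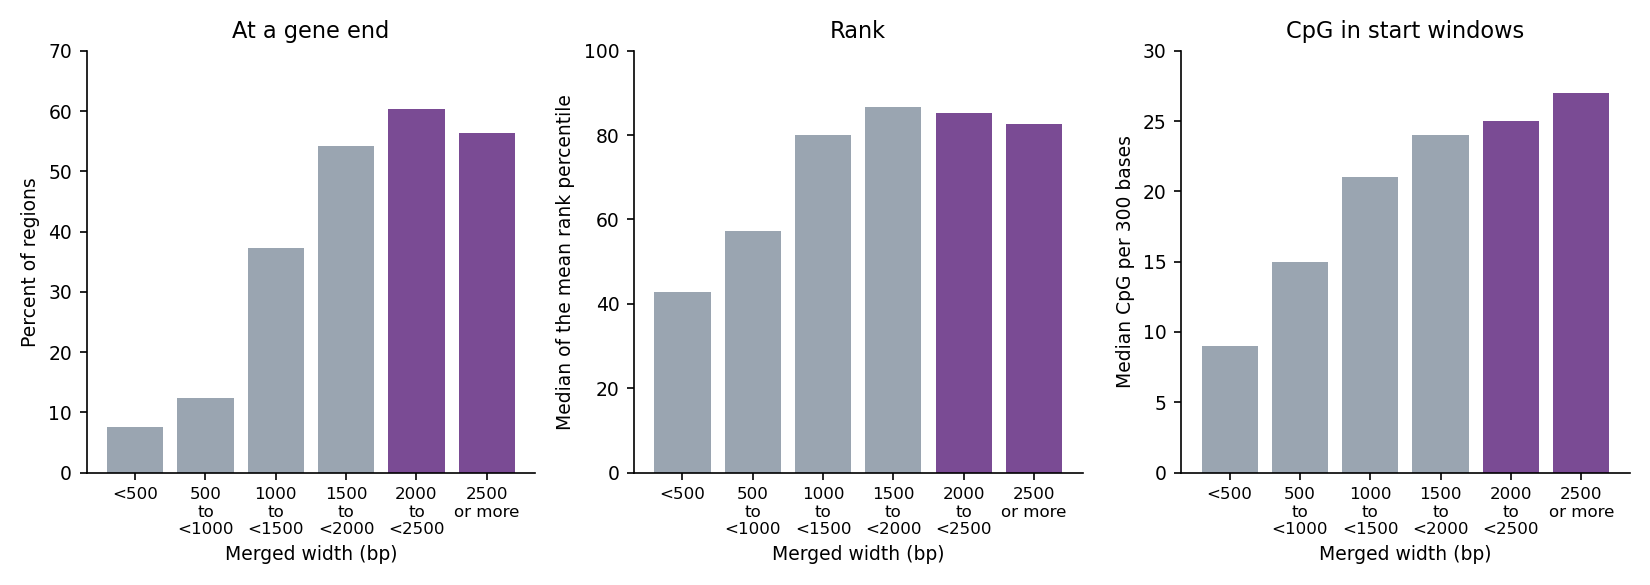
Shares, ranks and CpG content by merged width for the regions open in all 7 libraries, with very wide regions in purple. The panels show the percent with the summit within 1 kb of a gene end, the median of the mean rank percentile, and the median number of CpG per 300-base start window; the share at gene ends goes from 7.60% to a top of 60.3% and the rank from 42.8 to a top of 86.6.

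Promoter windows of 300 bases, from 250 before to 50 after a start, were compared by where the start fell. The table held 32585 windows of 26763 genes, and 1143 windows of 940 genes had their start inside a very wide region. Their median G+C content was 66% with 26 CpG, against 61.3% and 21 CpG for starts in narrower shared regions and 47.3% and 3 CpG for starts in no region. The ratio of observed to expected CpG exceeded 0.6 in 81.2% of the windows in very wide regions, 71.2% in narrower ones, 6.14% in no region and 36.0% of all windows. Windows of neighbouring genes and alternative starts overlap, so they are not independent.

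Sequence motifs were searched on both strands, each overlap counted as a match, and a window either held a motif or did not. GGGCGG occurred in 75.9% of the windows in very wide regions, 64.3% in narrower ones and 35.9% of all. CCAAT was about as frequent everywhere, at 35.2%, 37.4% and 37.6%. The TATA box TATAAA occurred in 5.34%, 6.79% and 13.7%, and the AP-1 motif TGANTCA in 3.32%, 4.95% and 7.85%. CCGGAAGT, the motif of ETS-family factors, ran the other way from the GC box, at 2.71% in very wide and 8.25% in narrower regions, with 3.92% of all windows.

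By width, CCGGAAGT was held by 1.26% of windows in regions under 500 bp and 5.67% from 500 to under 1000 bp. It was most frequent from 1000 to under 1500 bp, at 9.74%, and stood at 7.94% from 1500 to under 2000 bp. The very wide classes had 2.70% from 2000 to under 2500 bp and 2.76% from 2500 bp up. The E-box CACGTG (10.1% and 10.4%), the cyclic AMP response element TGACGTCA (2.27% and 3.17%), the palindromic motif of NRF1 (2.62% and 1.96%) and the palindromic motif of BANP (0.962% and 0.974%) differed little between starts in very wide and narrower regions. All 9 motif shares are descriptions of the letters in these windows.

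The widest region of all, 3583 bp at chr5:3341138-3344720, lay in the body of Cdk6, a cyclin-dependent kinase that drives entry into the cell cycle, 3525 bp from its nearer end. Peaks covered 3054, 2978 and 2955 bp of it in Syn and 2320, 2871, 3249 and 3289 bp in Allo. Allo 1 was lowest and Allo 3 and Allo 4 highest, with Syn inside their range. Its rank percentile was moderate, from 64.6 to 75.3, so the greatest width did not come with a high rank.

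The region of 3429 bp at Gm20783 and LOC108167694, 3358 bp in the body of Itga6 and 3209 bp in Lratd2 followed in width. Itga6, the laminin receptor subunit that anchors epithelial cells to the basement membrane, was broken into 4 peaks in 5 of the libraries, with 2 in Syn 2 and 3 in Allo 3. The others of at least 3000 bp were at Dach1, Tlcd1 with Nek8, Ctbp2, Cdc42ep5, Lratd1, Nr3c1 (the glucocorticoid receptor), Aamdc, Mex3d, Tsc22d2, Vgll4 and Dnmt3a (a de novo DNA methyltransferase). Their mean rank percentiles ran from 65.95 at Mex3d to 93.1 at Lratd1. Of the widest 15, none passed either test between groups.

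The intergenic regions were widest at 2966 bp, at chr13:37476431-37479396 and 58899 bp from the nearest gene end. Next came regions near Arhgap5 (2958 bp), Tlcd2 (2848 bp), Rims2 (2836 bp) and Atp2a3 (2815 bp), with mean rank percentiles of 88.6, 94.4, 75.5 and 78.8.

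The highest ranked very wide region was at the end of Garem1, an adaptor of growth factor signalling, with a mean percentile of 99.87 in spite of a width of 2065 bp. Uggt2, Usp42, Atp6v0a1, Cul4a, Pik3r3, Oxsr1, Lemd3 and Anp32e were also among the 10 highest ranked, down to 98.7. Of the 10, 8 had the summit at a gene end, and none was wider than 2353 bp. Cul4a, the scaffold of a ubiquitin ligase involved in DNA repair and replication, had percentiles of 99.3, 99.4 and 98.7 in Syn and 99.2, 98.9, 97.6 and 99.0 in Allo. Allo 3 stood below the other 6, and the groups overlapped.

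The lowest ranked were Asmt (mean percentile 21.2) and Fgf16 (25.3), both on the X chromosome, then Cib2, Nol4l and Zfp462. Asmt encodes the last enzyme of melatonin synthesis. Its region was covered by 1523, 1690 and 1615 bp in Syn and by 1032, 953, 784 and 877 bp in Allo. Every Allo library was below every Syn library.

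Several genes carried more than 1 very wide region. A total of 39 genes had 2, and Mgat5, Prdm16 and Tnk2 had 3 each. At Mgat5, a glycosyltransferase that branches N-glycans, 1 region was at the gene end (2019 bp) and 2 were in the body (2077 and 2185 bp), with mean rank percentiles of 82.2, 75.4 and 73.1. All 3 Prdm16 regions, 2189, 2464 and 2576 bp wide, lay in the body by their summit, and Tnk2 had 1 in the body and 2 outside it. None of these 9 regions passed a test between groups.

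Which kinds of genes had very wide regions was read from 28 gene lists of 492 entries, as counts. For this count a gene had a very wide region if the summit was assigned to it or an end of the gene lay inside the region, so that 1 region can count for several genes. By that wider definition 1267 of 21627 protein-coding genes (5.86%) had one. Crypt stem cell markers had 8 of 20, chromatin regulators 9 of 25 and Wnt pathway genes 7 of 20. Intestinal identity transcription factors and immediate early genes had 6 of 25 each, and heat shock and unfolded protein response genes 5 of 20. Notch, junction and p53 response genes each had 4 of 20, splicing genes 4 of 25, interferon response genes 5 of 30, MHC genes 3 of 15 and housekeeping genes 3 of 20. The NF-kB and cell cycle lists had 2 of 20 each. The 25 listed ribosomal protein genes had 1, Rpl7 (4%), near the 5.86% of all protein-coding genes.

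Lists of mature and other cell types had 0 or 1 gene each. These lists are short, and those with 1 gene stood at 5% (Hox) to 10%, near the 5.86% of all protein-coding genes. The enterocyte (Mme), Paneth cell (Wnt3), tuft cell (Il17rb), T and NK cell (Klrb1c), pan-leukocyte (Runx1), endothelial and stromal (Vim), Hox (Hoxb4) and nuclear non-coding RNA (Rn7sk) lists had 1 each. Goblet, enteroendocrine, B cell and myeloid lists had none. The lists differ in gene length and in the number of shared regions per gene, and whether that bears on the counts was not tested.

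**Figure D3:**
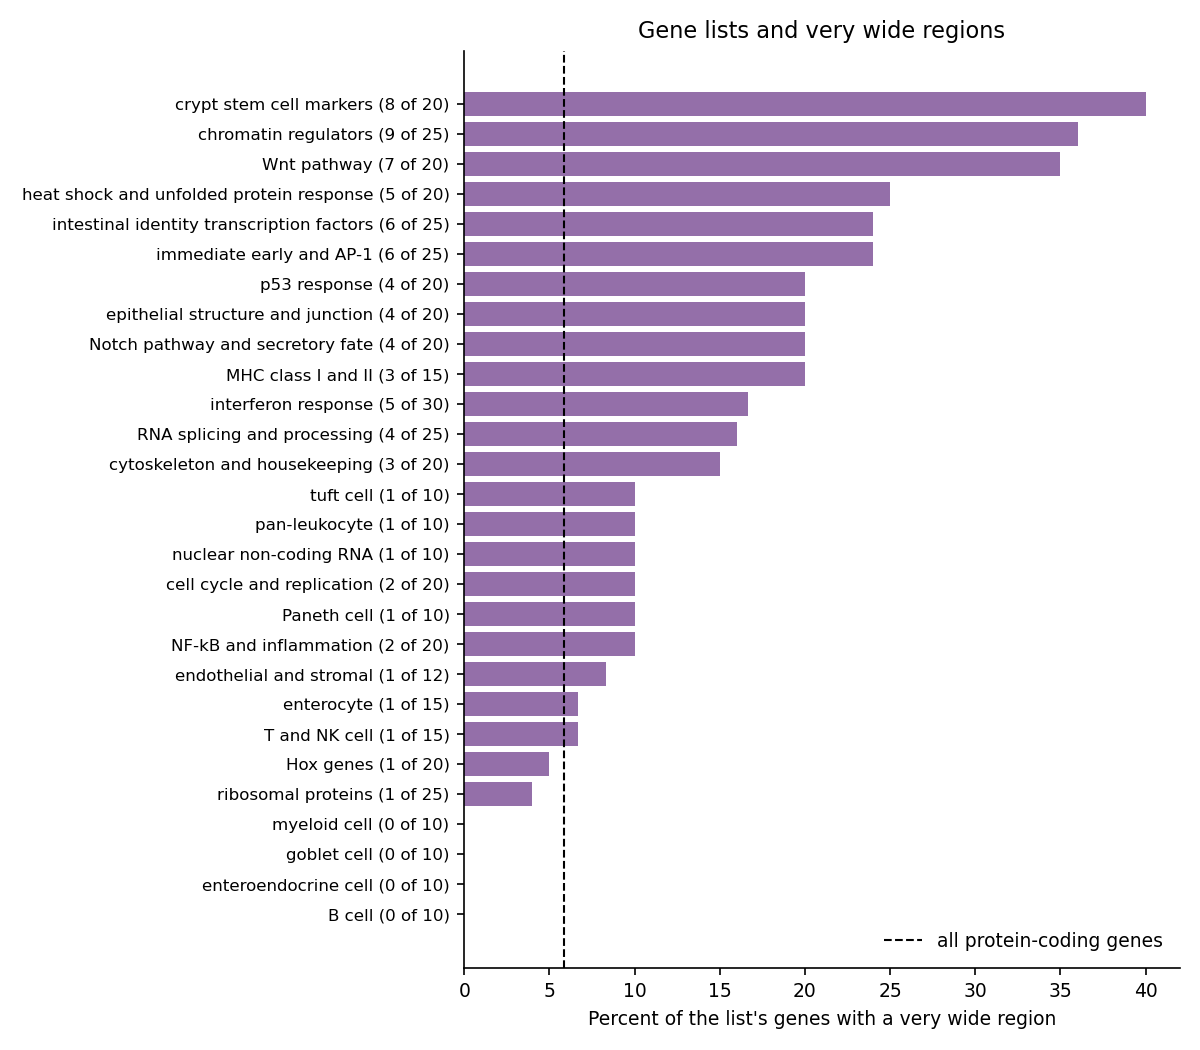
Bars give the percent of each list's genes that were assigned a very wide region, with counts in the labels, and the dashed line gives all protein-coding genes. Crypt stem cell markers (8 of 20), chromatin regulators (9 of 25) and Wnt pathway genes (7 of 20) stand highest, and 4 lists of mature or blood cell types stand at 0.

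Differences between Allo and Syn were tested with limma on all 50324 shared regions, with Benjamini-Hochberg adjustment over all of them and a threshold of 0.05. One test used the log2 covered width, less the library's median. The other used the rank of a region's best −log10 q among the 50324 regions, turned into a normal score. Covered width is not independent of the rule, since a region could reach 2000 bp through the group in which it is wide. Width differences of the very wide regions are therefore given as a description, with no p for a single region. Their width counts and width calls, here and below, are listed only, and no support for a difference is drawn from them. Of all shared regions, 0.258% were called wider in Allo and 0.131% narrower, 0.389% in all. Of the very wide regions, 2 were called wider in Allo and 1 narrower, 0.244% in all. Rank was called higher in Allo in 2.12% of all shared regions and lower in 2.25%, 4.37% in all. Of the very wide regions, 3 were called higher and 1 lower, 0.325% in all.

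The counts of very wide regions called by limma depended on single libraries. Without Allo 2, 11 (0.894%) were called higher and 10 (0.813%) lower in rank, where all shared regions gave 3.74% and 5.04%, and 1 was called wider and 2 narrower. Without Allo 1, 1 was called higher, and without Allo 4, 1; neither setting called any lower or wider, and each called 1 narrower. Without Allo 3, 3 were called higher and 0 in the other directions. Without Syn 1, 1 was called higher and 0 in the other directions, without Syn 2, 1 higher and 2 wider, and without Syn 3, 1 wider alone. Without Allo 1 and Allo 2, 9 (0.732%) were called higher and 44 (3.58%) lower in rank, where all shared regions gave 5.86% and 7.54%. That setting called 2 wider and 2 narrower, none of them among the 3 called with all libraries. Without Allo 3 and Allo 4, 8 (0.650%) were called higher, where all gave 1.14%, and 0 in the other directions. In each of these settings the share in rank was smaller among the very wide regions than over all shared regions.

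Without adjustment, a limma p under 0.05 in width was reached by 98 very wide regions in the wider direction (7.97%) and 38 in the narrower (3.09%), where all shared regions gave 7.5% and 5.03%, 12.5% in all. Width went into the rule, so these width counts are a description and not a test of the very wide regions. In rank it was reached by 61 higher (4.96%) and 34 lower (2.76%), where all gave 9.45% and 10.4%, 19.9% in all. In log2 covered width less the library's median, the groups did not overlap in 96 regions with Allo above (7.80%) and 29 with Allo below (2.36%). All shared regions gave 8.4% and 4.41%. In rank there were 95 (7.72%) and 46 (3.74%), where all gave 8.41% and 8.86%. Rank thus separated the groups in a smaller share of the very wide regions than of all shared regions.

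The typical change was small. The median difference in covered width over the very wide regions was 0.06 on the centred log2 scale, Allo minus Syn, against 0.04 over all shared regions, and in rank 0.03 against 0.00 normal score units. Before centring the order was the other way, with library medians of 1907 bp on average in Allo and 1958 bp in Syn. All width differences on the log2 scale, here and below, are centred on the library's median. Where the groups of a single region are said to overlap or lie apart in covered width, bp before centring are meant. The centred values can differ in this. The very wide regions were also measured more tightly, with a median standard error of 0.09 in log2 width against 0.15 over all and of 0.13 in rank score against 0.18. The share of rank calls was 5.93% of regions from 500 to under 1000 bp, 1.60% from 1500 to under 2000 bp and 0.381% from 2000 to under 2500 bp. Above that it was 0 of 179.

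**Figure D4:**
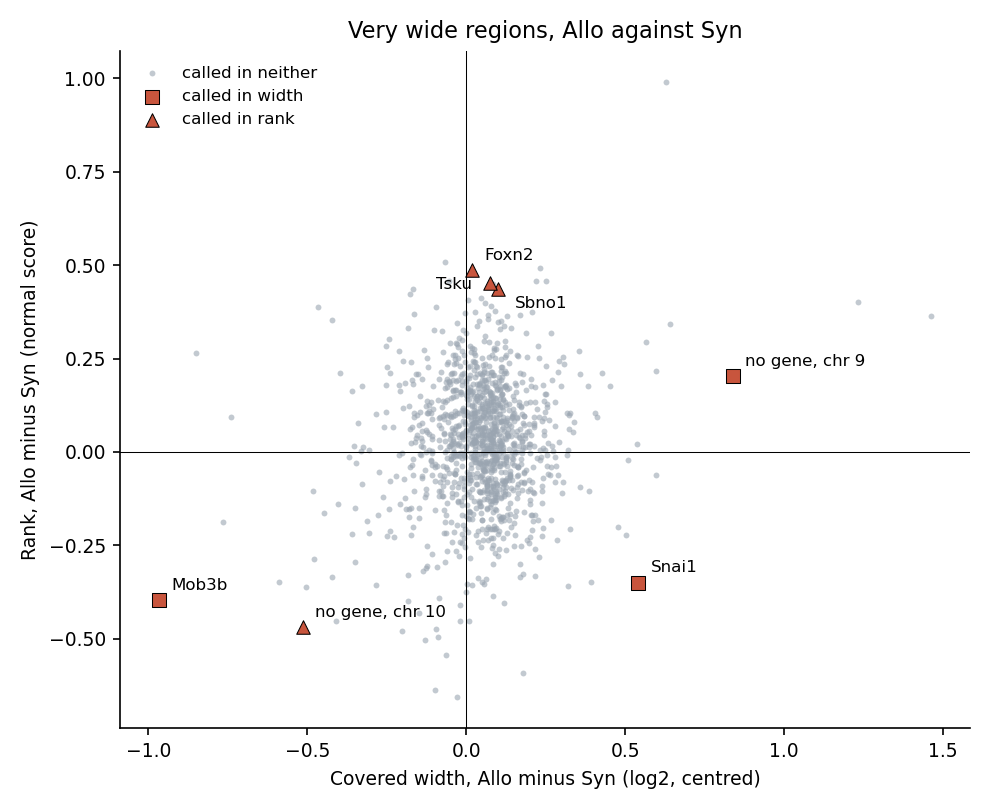
Each point is a very wide region, with the difference Allo minus Syn in centred log2 covered width on the x axis and in rank normal score on the y axis. Squares were called in width and triangles in rank, in fits over all shared regions; most of the 1230 points crowd around the origin, and 7 are called.

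The Snai1 region, 2255 bp at chr2:167536269-167538523, covers the start of the gene for Snail, a repressor of epithelial adhesion genes. Peaks covered 1329, 1467 and 1629 bp in Syn and 1845, 1965, 2213 and 2049 bp in Allo. Each Allo library was above each Syn library, with means of 1475 ± 150 bp (SD, n = 3) and 2018 ± 155 bp (SD, n = 4). The difference was 0.54 ± 0.08 (SE) on the centred log2 scale, and between 0.49 and 0.61 when 1 library was left out. No Syn library covered more than 1629 bp, so the region passed the 2000 bp threshold through Allo, where it is wide. Its rank percentile in the lists was 97.1, 97.3 and 96.9 in Syn and 94.2, 92.7, 94.5 and 95.8 in Allo, lower in every Allo library without passing the rank test (limma, adjusted p = 0.0839). It was no longer among the regions called in width without Allo 1, Allo 3, Allo 4, Syn 1 or Syn 2.

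A region without a gene within 50 kb, at chr9:14074069-14076146, was covered by 925, 1275 and 806 bp in Syn and by 1434, 1608, 1931 and 1690 bp in Allo. All 4 Allo values were above the Syn values. The width difference was 0.84 ± 0.13 (SE) on the log2 scale, and between 0.69 and 1.02 when 1 library was left out. Syn covered at most 1275 bp and Allo up to 1931 bp, and the merged outline alone reached the 2000 bp threshold. It was called in width with all libraries and without Syn 2, but not without any other single library.

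In the body of Mob3b, which belongs to the MOB family of kinase activators, a region of 2293 bp at chr4:35004104-35006396 was the 1 called narrower. Its covered width was 1902, 2026 and 2235 bp in Syn and 706, 1047, 1026 and 1258 bp in Allo. In each Syn library it was 1 unbroken peak, and in the Allo libraries it was split into 2 or 3. The difference was -0.97 ± 0.12 (SE) on the log2 scale, and between -1.05 and -0.87 when 1 library was left out. Allo covered at most 1258 bp, so this region passed the threshold through Syn. It was no longer called in width without Allo 3, Syn 1, Syn 2 or Syn 3.

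Ranks among the shared regions, as used in the test, are lower than those in whole lists, since shared regions are mostly strong. The Foxn2 region, 2249 bp at chr17:88439940-88442188, lies at the end of a forkhead transcription factor gene. Its percentile among shared regions was 85.9, 86.2 and 82.1 in Syn and 94.2, 93.5, 94.2 and 91.8 in Allo. The groups were apart, with means of 84.7 ± 2.30 (SD, n = 3) and 93.4 ± 1.14 (SD, n = 4), and the difference was 0.49 ± 0.11 (SE) normal score units (limma, Benjamini-Hochberg adjusted p = 0.0146). Covered width did not follow, at 2113 ± 180 bp in Syn and 2013 ± 158 bp in Allo. The rank call was lost in limma without Syn 1 (adjusted p = 0.0537) or Syn 3 (0.106).

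Tsku encodes tsukushi, a secreted protein known to bind Wnt receptors and other ligands. Its gene-end region, 2239 bp at chr7:98360037-98362275, had percentiles among shared regions of 76.9, 77.7 and 67.4 in Syn and 85.1, 85.1, 84.7 and 90.3 in Allo. All Allo libraries lay above Syn, by 0.45 ± 0.12 (SE) normal score units (limma, Benjamini-Hochberg adjusted p = 0.0322). The call was lost in limma without Allo 1 (adjusted p = 0.0543), Allo 4 (0.105), Syn 1 (0.0752), Syn 2 (0.0632) or Syn 3 (0.205).

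At Sbno1, a helicase-family gene, the region of 2154 bp at chr5:124424263-124426416 had percentiles of 69.6, 80.3 and 73.1 in Syn and 91.4, 84.1, 82.5 and 86.1 in Allo. Syn 2 came close to the lowest Allo library without reaching it. The difference was 0.44 ± 0.13 (SE) normal score units (limma, Benjamini-Hochberg adjusted p = 0.0481). It was no longer called in limma without Allo 1 (adjusted p = 0.134), Allo 4 (0.0889), Syn 1 (0.22), Syn 2 (0.0567) or Syn 3 (0.18).

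The 1 region called lower in rank had no gene within 50 kb and spanned 2336 bp at chr10:21685521-21687856. Percentiles among shared regions were 83.7, 81.6 and 79.6 in Syn and 61.0, 73.9, 63.1 and 68.4 in Allo. Allo was below Syn in every library, by -0.47 ± 0.12 (SE) normal score units (limma, Benjamini-Hochberg adjusted p = 0.0304). Leaving out any 1 library but Allo 2 ended the limma call, at adjusted p of 0.0765 (Allo 1), 0.0614 (Allo 3), 0.0531 (Allo 4), 0.147 (Syn 1), 0.106 (Syn 2) and 0.092 (Syn 3).

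Other settings also ended calls, with each of the 7 regions keeping its direction. None of the 3 width calls was kept without centring, without Allo 1 and Allo 2, without Allo 3 and Allo 4 or by the widest single peak. When −log10 q was replaced by the deposited fold, none of the 4 rank calls was kept, at limma adjusted p of 0.517 (Foxn2), 0.880 (Tsku), 0.863 (Sbno1) and 0.843 (chromosome 10). With ranks in whole lists Foxn2 alone of the 4 was called. Without Allo 3 and Allo 4, Foxn2 and Sbno1 were called and Tsku (0.118) and chromosome 10 (0.0805) were not, and without Allo 1 and Allo 2, Sbno1 (0.0808) was not.

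**Figure D5:**
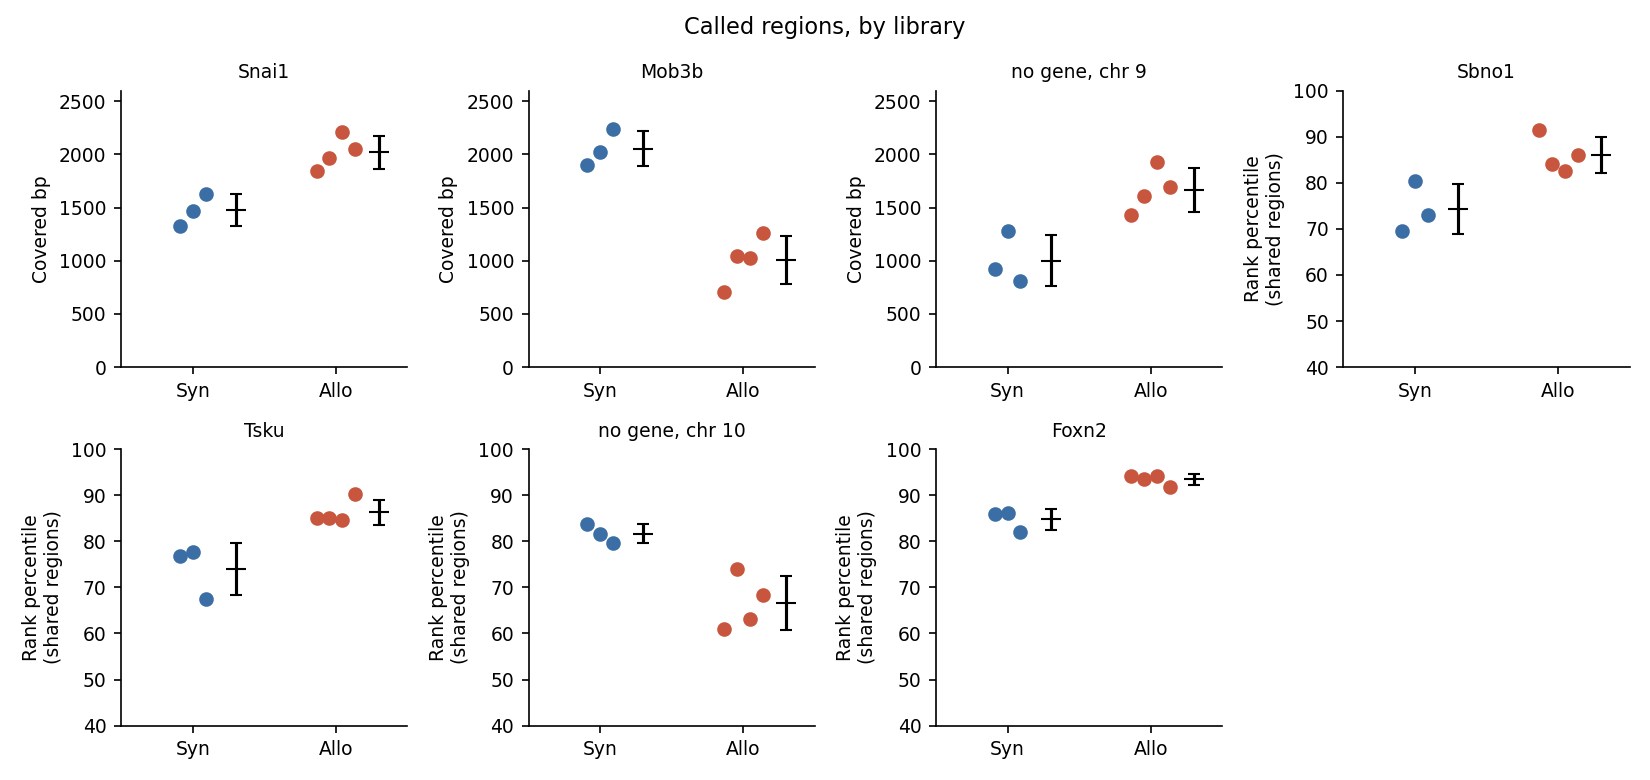
Values by library of the 7 called regions, covered bp for the first 3 and rank percentile among shared regions for the other 4, where the axis starts at 40. Points are libraries (3 Syn, 4 Allo), and the bar beside them gives the mean and SD; in each panel the groups do not overlap.

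The region with the largest width difference, chosen after its value was seen, was in the body of Cib2, covered by 268, 817 and 683 bp in Syn and 1368, 914, 2030 and 1418 bp in Allo. It was 1.46 ± 0.34 (SE) apart on the log2 scale and was not called, and its outline of 2043 bp was nearly that of Allo 3 alone.

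Of the list genes, 81 of 491 had a very wide region, in 83 regions, and none of these passed either limma test at an adjusted p under 0.05. At an unadjusted limma p under 0.05 there were 4 in width (4.82%) and 5 in rank (6.02%), where all shared regions gave 12.5% and 19.9%.

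Ascl2, the transcription factor that maintains Lgr5+ stem cell identity, had a gene-end region of 2376 bp that was 1 peak in every library and covered 2316 ± 16.3 bp (SD, n = 3) in Syn and 2326 ± 39.2 bp (SD, n = 4) in Allo. Its percentile in the lists was 75.5, 81.2 and 79.5 in Syn and 84.5, 87.6, 85.5 and 84.3 in Allo. Allo was above Syn in each library, but the limma adjusted p was 0.20. The very wide region in the body of Lgr5, which encodes the R-spondin receptor used for the sort, went the other way, with list percentiles of 67.7, 65.4 and 68.8 in Syn and 28.1, 56.4, 58.2 and 56.1 in Allo. All 4 Allo values were below Syn and Allo 1 was far below, at a rank score difference of -0.64 ± 0.20 (SE) and a limma adjusted p of 0.0727.

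The region at Znrf3, a membrane ubiquitin ligase that removes Wnt receptors, had list percentiles of 88.0, 91.8 and 89.6 in Syn and 94.2, 95.1, 92.2 and 93.8 in Allo (limma adjusted p = 0.195). Its partner Rnf43 had a region of 2376 bp in the gene body with a mean percentile of 74.3. Lrig1, an inhibitor of growth factor receptors, had 2027 bp at its end with a mean percentile of 94.2, and Prom1, a membrane protein of stem and progenitor cells, an intergenic region of 2193 bp at 91.4. Msi1, an RNA-binding protein of progenitors, had 2721 bp in its body at 55.9.

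In the Wnt list, Ctnnb1 encodes beta-catenin, which carries the signal to the nucleus. Its gene-end region had list percentiles of 68.9, 72.5 and 74.5 in Syn and 83.6, 83.2, 84.3 and 77.4 in Allo. The groups did not overlap and Allo 4 was the closest to Syn, with a limma adjusted p of 0.109. The receptor gene Fzd7 had the widest region of the list (2961 bp), covered by 1934, 2326 and 2297 bp in Syn and 2035, 2025, 2661 and 2634 bp in Allo, where the groups overlapped. Sp5, a target of Wnt signals that feeds back on them, was next at 2869 bp. Tcf7, Lrp6, Gsk3b and Bcl9l made up the rest, with widths from 2021 to 2307 bp.

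The identity factors with a very wide region included Foxa2, Gata5, Gata6 and Sox9. Sox9, needed for Paneth cells and expressed in crypts, had 2094 bp covered to 1949 ± 138 bp (SD, n = 3) in Syn and 1693 ± 371 bp (SD, n = 4) in Allo, where Allo 2 was lowest at 1169 bp. The chromatin regulators were Brd2, Chd4, Ctcf, Dnmt3a, Kdm6a, Kdm6b, Kmt2a, Kmt2e and Tet3, and Dnmt3a was the widest at 3021 bp. The Dnmt3a region was covered by 2579, 2926 and 2941 bp in Syn and by 2667, 2696, 2400 and 2406 bp in Allo, with overlap. Atoh1, Notch1, Nrarp and Rbpj were the Notch and secretory fate genes. Btg1, Egr1, Gadd45b, Ier5, Jun and Zfp36l2 were the immediate early genes.

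Of interferon response genes, Irf1, Irf2 (2 regions), Irgm1, Socs1 and Socs3 had very wide regions. The intergenic region near Irgm1, an interferon-induced GTPase, was covered by 1224, 1750 and 1212 bp in Syn and by 1731, 1706, 2045 and 1880 bp in Allo. In bp, Syn 2 lay among the Allo values, and the difference was 0.50 ± 0.12 (SE) on the centred log2 scale. B2m, the light chain of MHC class I, had 1646, 1606 and 1593 bp in Syn and 1567, 1621, 2138 and 1855 bp in Allo. These values overlapped in bp, before centring. H2-K1, an MHC class I heavy chain, and Tapbp, its peptide-loading partner, completed the MHC genes. H2-K1 has close relatives in the genome, so its values are uncertain where reads could be placed at either copy.

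The enterocyte gene Mme, a brush border peptidase, had an intergenic region covered by 1862, 1978 and 1828 bp in Syn and by 655, 1034, 1581 and 1116 bp in Allo. No Allo library reached Syn, and the difference was -0.77 ± 0.17 (SE) on the log2 scale. Vim, the intermediate filament gene of mesenchymal cells, had a low-ranked region with a mean percentile of 41.5, with 1 peak in Syn 1 and Allo 3 and 3 or 4 in the other libraries.

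Finally, the share of all peaks of a list that were at least 2000 bp wide by themselves was 0.446%, 0.661% and 0.533% in Syn and 0.337%, 0.315%, 0.723% and 0.492% in Allo. The means were 0.547% ± 0.108 (SD, n = 3) and 0.467% ± 0.188 (SD, n = 4), a difference of -0.0800 percentage points (two-sided exact permutation p = 0.571, where 35 relabellings allow no less than 0.0286). Allo 3 was the highest of the 7 and Allo 2 the lowest. Without Allo 1 and Allo 2 the difference was 0.0606 (exact permutation p = 0.6), and without Allo 3 and Allo 4 it was -0.221 (exact permutation p = 0.2).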

How the data were processed

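ATAC-seq peak lists of 3 Syn and 4 Allo libraries were used. Bowtie2 and Trim Galore, MACS3 and MACS2, and mm10 as the build are named in the submitters' processing notes with no version or role. The calling threshold, read shifting and filters are not given in the sources used here; these bear on peak widths. The authors deposited 1 list per library, called per library, as a file of 10 columns with no header. Its values are a score, which equals 10 times the −log10 q rounded down in at least 99.994% of the peaks of each list, a fold enrichment, −log10 p, −log10 q and the summit offset, all as deposited by the authors. They belong to each peak and served only to rank peaks. The lowest deposited −log10 q of a list was between 1.30 and 1.42.

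Regions, genes and lists were chosen with earlier results of these data known. Place and nearest gene (within 50 kb) used RefSeq genes of GRCm38.p6, a table of 21627 protein-coding genes. Both were taken from the summit of the peak with the highest rank percentile in its own list. A summit within 1 kb of an end of a protein-coding gene was placed at a gene end. Promoter windows and microRNAs came from RefSeq tables of the same assembly. The promoter table has no entry for some genes. All 492 list entries matched. Libraries were compared with limma 3.58.1 in R 4.3.3 (eBayes with trend, two-sided, Benjamini-Hochberg at 0.05) over 50324 regions, and single shares by exact permutation. P-values measure the spread between these pools of mice. On simulated data, 100 shifts of each size were planted in regions drawn from all 50324. Width shifts of 1 log2 unit were recovered in 54 and of 0.5 in 8, and rank shifts of 1 in 57 and of 0.5 in 3. Median standard errors were smaller in the very wide regions, at 0.09 against 0.15 in width and 0.13 against 0.18 in rank. Recovery in the very wide regions alone was not examined.

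Named regions were the 15 widest, the 10 highest and 5 lowest ranked, the 5 widest intergenic, 5 on each side of the threshold, those called, and up to 4 per list, and not all are printed. In addition, regions with microRNAs, list genes beyond 4 and the genes with 3 regions were named after their values were seen. Alternatives were other width thresholds, merging gaps, a −log10 q of at least 5, place windows, lists cut to equal length, other scales and ranks, a replicate block, and leaving out libraries. Whether a number pairs a Syn and an Allo library was checked from the correlation of their deviations.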

Additional observations from a re-analysis of the deposited data

Results flagged for a closer look

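Among 72 sets of 4 Allo values tested for a value far from the others, 9 were picked out by Dixon's test at 95%, where chance flags about 1 in 20 groups. In rank percentile within the list, Allo 1 was low at Lgr5 (28.1) and at Sp5 (52.99), Allo 4 was low at Ctnnb1 (77.4), and Allo 3 was low at Cul4a (97.6) and Fzd7 (90.2). Allo 2 was high at Cdk6 (75.3) and low at Lratd1 (92.6). In covered width, Allo 3 was high at Foxn2 (2249 bp) and at Notch1 (2665 bp). The 9 values came from each of the 4 Allo libraries, Allo 3 giving 4 of them. The Syn group of 3 was not tested.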

How the results depend on the processing

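The number of very wide regions was 5975 at a minimum width of 1500 bp, 15 at 3000 bp and 194 where each library had to cover 2000 bp, and between 1021 and 1208 when 1 library was left out. The share at gene ends was 69.4% by any overlap with a gene-end window, 50.4% with windows of 500 bp and 40% among regions of at least 3000 bp. Regions called wider in Allo, 2 by limma as described, numbered 6 with lists cut to equal length, 0 without centring, 0 without Allo 3 and 4, and 0 to 2 with 1 library left out. With equal list lengths the 6 were 0.488% of the very wide regions, where all shared regions gave 0.135%. Those called narrower, 1 as described, numbered 3 on the bp scale, 5 with equal list lengths, 0 without centring, 6 by the widest single peak, 2 without Allo 1 and 2, 0 without Allo 3 and 4, and 0 to 2 with 1 library left out. The shares narrower were 0.244% on the bp scale, 0.407% with equal list lengths and 0.488% by the widest single peak. All shared regions gave less, at 0.185%, 0.0974% and 0.161%. Without Allo 1 and 2 the share was 0.163%, where all gave 0.193%. Those called higher in rank, 3 as described, numbered 0 by deposited fold, 1 by whole lists, 9 without Allo 1 and 2, 8 without Allo 3 and 4, and 0 to 11 with 1 library left out. All shared regions gave 0.755% higher by fold and 0.36% by whole lists, where the 1 very wide region was 0.0813%. Those called lower in rank, 1 as described, numbered 0 by fold, 2 on the percentile scale, 0 by whole lists, 44 without Allo 1 and 2, 0 without Allo 3 and 4, and 0 to 10 with 1 library left out. On the percentile scale the 2 were 0.163%, where all shared regions gave 1.57%. The difference in the share of wide peaks was 0.0606 without Allo 1 and 2, the only change of sign among the alternatives run. For these, the cause was not tested. None of the 7 called regions changed direction under its 13 or 14 alternatives, and Foxn2 was called in 10 of 13, Mob3b in 5 of 14 and the region on chromosome 9 in 2 of 14.

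With a replicate block on numbers 1 to 3 (6 libraries, without Allo 4), 0 very wide regions were called wider, 0 narrower, 2 higher and 1 lower in rank, and over all shared regions width calls went from 66 to 0 and rank calls from 1323 to 1968 against the same 6 libraries without the block. Same-numbered libraries had deviation correlations between -0.000519 and 0.0431 in width and between -0.0293 and 0.0426 in rank. Differently numbered libraries had -0.0385 to 0.0122 in width and -0.0581 to 0.0306 in rank. The pairs numbered 1 and 3 lay above every differently numbered pair in both measures, and the pair numbered 2 did not. All these correlations were weak. The main tests did not pair libraries, and a pairing by number was not excluded.

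Depth is unknown, widths and q-values depend on it, and the lists differ in length, so changes in a single region cannot be told apart from what depth leaves after centring or ranking.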
